A study of Mus musculus with 7 samples.

Results

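The cytosolic ribosomal proteins were followed in Paneth cells (PCs), which sit deep in the crypts of the small intestine and secrete antimicrobial granules. They were taken as the protein-coding genes with a mouse symbol made of Rps, Rpl or Rplp, a number and, in some, a closing letter or digit, a rule that uses no measured value. It found 83 genes among the 55414 identifiers of the count table, 32 of the small subunit (Rps) and 51 of the large subunit (Rpl and Rplp). PCs had been sorted from C57BL/6J mice 15 h after an injection of either phosphate-buffered saline (PBS) or tumour necrosis factor (TNF), an inflammatory cytokine, and the labels name no other allele or agent in either group. There were 3 PBS and 4 TNF libraries of bulk RNA, each from a different mouse, and the comparison asks how TNF changes PC mRNA. No source used here gives the dose, age, sex or sorting markers.

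A ribosome is built from a small subunit, which reads the mRNA, and a large subunit, which joins the amino acids, and each is made of rRNA and a fixed set of proteins that, apart from those of the stalk, are needed in equal numbers. Cells that secrete as much protein as PCs hold many ribosomes. The mRNAs of ribosomal proteins are known to start with a run of pyrimidines, the TOP motif, through which mTOR and the binding protein Larp1 set how well they are translated, so that the mRNA level and the rate at which the protein is made can part. Most ribosomal proteins are encoded by 1 gene that has left many processed copies in the genome, and a few have a second gene, a paralog, whose product can take the place of the parent in the ribosome.

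Sequences are shown first for the parent and paralog pairs on which the largest changes fell, since they tell how far reads of the partners can be told apart. The coding sequences of Rps27 and its paralog Rps27l, from the GENCODE M39 annotation of GRCm39, have 255 bases each and are 76.1% identical, with differing bases in capitals. No stretch of 75 bases is shared, and the longest identical run has 11 bases.
Rps27: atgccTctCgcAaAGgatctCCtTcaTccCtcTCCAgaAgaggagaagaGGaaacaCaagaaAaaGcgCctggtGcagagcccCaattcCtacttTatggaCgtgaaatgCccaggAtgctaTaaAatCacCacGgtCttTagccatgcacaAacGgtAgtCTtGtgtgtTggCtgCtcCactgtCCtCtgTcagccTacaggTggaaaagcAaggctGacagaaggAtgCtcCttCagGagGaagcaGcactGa
Rps27l: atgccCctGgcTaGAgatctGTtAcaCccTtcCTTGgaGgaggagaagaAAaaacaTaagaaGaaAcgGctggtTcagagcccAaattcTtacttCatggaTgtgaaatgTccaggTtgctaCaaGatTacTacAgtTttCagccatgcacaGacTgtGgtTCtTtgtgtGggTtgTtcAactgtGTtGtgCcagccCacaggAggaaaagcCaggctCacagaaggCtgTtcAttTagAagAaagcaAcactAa
The coding sequences of Rpl22, with 387 bases, and of Rpl22l1, with 366 bases, align at 66.9% identity, and their longest identical run has 26 bases. Their starts are shown, 219 bases of Rpl22l1 and 240 of Rpl22 that align with each other, and capitals mark bases that differ or have no partner.
Rpl22: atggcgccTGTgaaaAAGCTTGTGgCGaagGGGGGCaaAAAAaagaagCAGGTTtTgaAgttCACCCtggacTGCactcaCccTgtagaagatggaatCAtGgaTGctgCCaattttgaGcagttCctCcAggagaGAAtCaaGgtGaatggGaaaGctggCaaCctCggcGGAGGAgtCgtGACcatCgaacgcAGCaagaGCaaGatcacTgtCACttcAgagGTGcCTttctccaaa
Rpl22l1: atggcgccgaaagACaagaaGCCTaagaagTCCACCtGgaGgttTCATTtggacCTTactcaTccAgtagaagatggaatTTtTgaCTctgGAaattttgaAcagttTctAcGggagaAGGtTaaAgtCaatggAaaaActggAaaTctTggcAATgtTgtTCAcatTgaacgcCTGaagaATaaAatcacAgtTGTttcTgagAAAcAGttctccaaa
No stretch of 75 bases is shared by this pair either. In GRCm39, Rps27l lies on the plus strand at chr9:66853340-66856808, and the other 3 genes lie on other chromosomes. Near-identical copies elsewhere in the genome cover 100% of the coding sequence of Rps27 (3 copies) and 98.9% of that of Rpl22l1 (1 copy), so that the counts of both are uncertain, and none was found for Rps27l or Rpl22.

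Promoters are shown because many members had a positive fold change, although 41 of 80 tested did not pass the threshold for a change. RefSeq promoters of GRCm38.p6, each running from 250 bases before to 50 bases after an annotated start, could be matched for 62 of the 83 members. The letters CCGGAAG, the core bound by ETS factors, occurred on either strand in 25 of the 62 (40.3%), compared with 9.86% of the 26963 other genes in that table. CTCTTTC, a pyrimidine stretch, occurred in 18 members (29%) and 9.24% of the others. AAGATGG, found in sites of YY1, occurred in 10 (16.1%) and 7.26%, and TATAAA occurred in 7 (11.3%) and 15.7%. Stretches from 90 bases before to 20 bases after the start are printed for Rps27l, Rpl19, Rpl11 and Rpl41, with CCGGAAG or its reverse complement in capitals. For Rps27l and Rpl19 the table holds a further annotated start, whose stretch lacks these letters and is not shown.
Rps27l (chr9:66945996-66946105, plus strand): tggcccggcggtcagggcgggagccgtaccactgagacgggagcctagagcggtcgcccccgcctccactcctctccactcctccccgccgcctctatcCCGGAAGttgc
Rpl19 (chr11:98026620-98026729, plus strand): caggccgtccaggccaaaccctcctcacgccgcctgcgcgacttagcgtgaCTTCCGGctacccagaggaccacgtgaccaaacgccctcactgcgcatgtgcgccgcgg
Rpl11 (chr4:136053374-136053483, minus strand): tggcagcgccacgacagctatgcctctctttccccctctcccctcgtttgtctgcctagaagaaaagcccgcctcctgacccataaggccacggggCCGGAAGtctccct
Rpl41 (chr10:128549149-128549258, minus strand): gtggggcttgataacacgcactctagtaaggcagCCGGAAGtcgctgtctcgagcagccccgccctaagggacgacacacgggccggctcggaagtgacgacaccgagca
The median log2 fold change was 0.35 over the 24 tested members with CCGGAAG and 0.36 over the 35 without it. Of the former 10 were called (41.7%), all higher, and of the latter 20 (57.1%), 18 higher and 2 lower, compared with 59.6% of all tested genes. The libraries of the groups did not overlap for 16.7% of the former and 42.9% of the latter, compared with 60.7% of all tested genes, and the difference between the sets was not tested.

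The libraries held 15511455 to 19193721 counts. Levels are given as CPM, counts scaled to a library size of 1000000 after trimmed-mean (TMM) scaling, and differentially expressed genes (DEGs) are those with an adjusted p under 0.05 in a fit across 14329 tested genes. The sorted cells carried the PC products at very high levels in both groups, with a mean of 96510 CPM of Lyz1 after PBS and 118700 CPM after TNF, and 3 of 12 PC markers were higher and 5 lower. Markers of other cells are counted beside all tested genes, of which 59.6% were called, 29.5% higher and 30.1% lower. The shares of PC, goblet, enteroendocrine and leukocyte markers called (50% to 66.7%) lay near that of all genes. Of the 10 stem and early progenitor markers 8 fell and none rose, and their summed level ran from 4156 to 5389 CPM in PBS and from 2607 to 3400 CPM in TNF libraries. Of the 8 tested enterocyte markers of 10 listed 7 fell (summed 916 to 1141 CPM, then 295 to 360 CPM), and all 8 tuft markers fell (1631 to 2692 CPM, then 327 to 838 CPM). Proliferation markers had 7 of 12 lower and 3 higher, with sums of 664 to 718 CPM and 405 to 513 CPM. The 8 goblet markers had 4 lower and 1 higher (11300 to 20700 CPM, then 9440 to 10980 CPM), and the 8 enteroendocrine markers 3 lower and 1 higher (36.3 to 98.8 CPM, then 45.2 to 74.3 CPM). The 11 leukocyte markers summed to 25.2 to 33.3 CPM in PBS and 28.3 to 33.5 CPM in TNF libraries, with 2 of 6 tested higher and 1 lower. Cd3e was at 0 in every library, whereas the neutrophil genes S100a9 and Ly6g had 0 counts in the PBS libraries and 399 and 233 counts over the TNF libraries. Stromal, endothelial and erythroid markers stayed at or below 0.53 CPM in sum. Ribosomal proteins are made by every cell, and in bulk RNA a change in the cells sorted and a change in mRNA per cell cannot be told apart. The part of these markers' cells in the results that follow was not tested.

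Among the ribosomal protein mRNAs that passed the threshold, nearly all were higher after TNF, mostly by small factors. Their summed share of all counts, described below, overlapped between the groups (exact permutation p = 0.114). Of the 83 genes, 80 passed the filter on low counts. Of these, 37 were higher (46.2%) and 2 were lower (2.5%) in TNF than in PBS, whereas 59.6% of all tested genes were called, 29.5% higher and 30.1% lower. The remaining 41 did not pass the threshold. The median log2 fold change was 0.35, with quartiles of 0.08 and 0.48, and the median over all tested genes was 0.00. A positive fold change was seen for 68 genes and a negative one for 12. The range was narrow for this dataset, since 31.6% of all tested genes were DEGs with a change of at least 2-fold and 1 ribosomal protein gene, Rps27l, was.

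**Figure D1:**
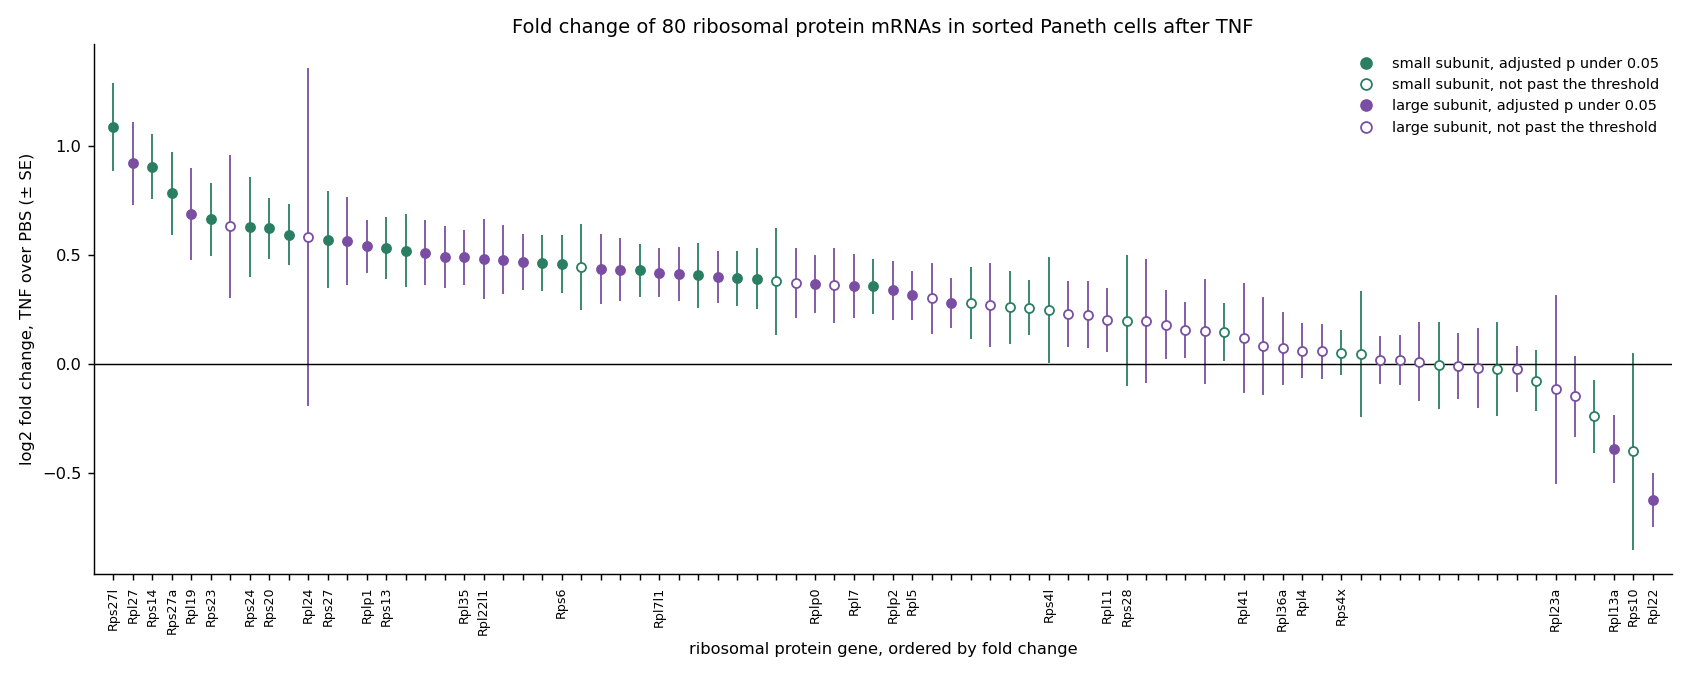
Log2 fold change of TNF over PBS (vertical axis, points with SE) for the 80 tested ribosomal protein genes, ordered by size along the horizontal axis (names given for members described in the text) and coloured by subunit, with filled points for DEGs. Most points lie above 0, from Rps27l at 1.09 down to Rpl22 at -0.62, and the 2 filled points below 0 are Rpl13a and Rpl22.

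The libraries of the 2 groups overlapped for most members. All TNF libraries lay above all PBS libraries for 23 genes and below for 2, which makes 31.2% of the tested members, compared with 60.7% of all tested genes (29.9% above and 30.9% below). Some libraries were high or low in most ribosomal proteins together. The median deviation of the 80 members from their group mean was 0.21, 0.09 and -0.29 on the log2 scale in PBS replicates 1, 2 and 3, and -0.29, -0.02, 0.03 and 0.26 in TNF replicates 1 to 4. PBS replicate 3 and TNF replicate 1 were thus the low libraries of their groups, and TNF replicate 4 the high one. These deviations went with coding length in some libraries: across the 80 members, which share their libraries, the Spearman correlation of the deviation with coding length was 0.44 in PBS replicate 3 and 0.60 in TNF replicate 1, and -0.46 in PBS replicate 1 and -0.43 in TNF replicate 4. It was -0.21 in PBS replicate 2, -0.08 in TNF replicate 2 and -0.35 in TNF replicate 3. The spread within groups fell with coding length (Spearman's rho = -0.54 over the same 80 genes). Rps28, with 210 coding bases, had an SD of 0.50 on the log2 scale and Rps4x, with 792, one of 0.09, but the largest spread, an SD of 0.68, was that of Rpl23a, with 471. What sets these deviations was not tested.

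The count of DEGs depended on these libraries and on the scaling. Without PBS replicate 3 there were 22 members called (20 higher and 2 lower, median 0.22), and without TNF replicate 4 there were 25 (23 and 2, median 0.24). Of all tested genes, 56.4% and 57.0% were called in these fits, compared with 59.6% with all libraries. With scaling by total counts only, 21 were higher and 3 lower and the median was 0.19, but the median of all genes then moved to -0.16, so that the members stood 0.35 above it under both scalings. Of all tested genes 54.1% were called with total counts only. Among the genes described in what follows, the members Rplp0, Rplp2, Rpl5, Rpl7, Rpl7l1 and Rpl22l1, as well as Rpsa and Larp1, were DEGs with TMM but not with total counts only. With the size factors of DESeq2 in place of TMM, the calls of Rplp2, Rpl7 and Rps27 were lost. Scaled to their own sum, which removes any change they share, members were left with 6 higher and 6 lower. In that fit 51.7% of all tested genes were called.

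A share of all counts needs no scaling between libraries. It covers only reads that were counted for these genes, and how reads with several matches were treated is not known. Ribosomal protein genes took 1.21%, 1.29% and 1.16% of the counts of the PBS libraries and 1.28%, 1.31%, 1.44% and 1.45% of those of the TNF libraries. PBS replicate 2 lay above TNF replicate 1, and the means of 1.22% ± 0.07 (SD, n = 3) and 1.37% ± 0.09 (SD, n = 4) differed by 0.151 percentage points with an exact two-sided permutation p of 0.114 (0.171 after adjustment over the 3 summed measures compared). Outside the alpha-defensins and Lyz1, which take up a large share of PC counts, the shares were 1.66% and 1.81% and the exact permutation p was 0.371. The smallest p these group sizes allow is 0.0286.

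The stalk of the large subunit, which draws translation factors to the ribosome, is made of Rplp0, Rplp1 and Rplp2. Rplp0 was at 701.7, 627 and 634 CPM in the PBS libraries and at 727, 883, 782 and 985 CPM in the TNF libraries. Rplp1 was at 283, 245 and 249 CPM and at 325, 351, 394 and 436 CPM. The groups did not overlap for either gene, with log2 fold changes of 0.37 ± 0.13 (SE, adjusted p = 0.027) and 0.54 ± 0.12 (adjusted p = 0.00172). Rplp2 was at 210.0, 192 and 154 CPM and at 193, 239, 235 and 272 CPM, so that TNF replicate 1 fell among the PBS libraries (0.34 ± 0.14, adjusted p = 0.0434). Rplp1 stayed a DEG whichever library was left out. The call of Rplp0 was lost without PBS replicate 2 or 3 or TNF replicate 2 or 4, with an adjusted p of at most 0.0959 (without PBS replicate 2). That of Rplp2 was lost without PBS replicate 2 or 3 or TNF replicate 2, 3 or 4, with an adjusted p of at most 0.184 (without PBS replicate 3).

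In the small subunit, 17 of 32 genes were higher and none was lower (median log2 fold change 0.39), or 53.1% called compared with 59.6% of all tested genes. Rps14, a protein of the platform of the subunit that is known from the 5q- syndrome, was at 286, 273 and 219 CPM in PBS and at 380.3, 484, 498 and 583 CPM in TNF libraries. Even the lowest TNF library was well above the highest PBS library, and Rps14 rose by 0.91 ± 0.15 (SE, adjusted p = 0.000131), the smallest p among the members. Rps23, which sits at the decoding centre, was at 153, 141 and 103 CPM and at 157, 219, 211 and 254 CPM. It rose by 0.66 ± 0.17 (adjusted p = 0.00402), with TNF replicate 1 only just above PBS replicate 1. Rps27a, made as a fusion to ubiquitin, was at 123, 106 and 71.4 CPM and at 139, 170, 163 and 219 CPM, without overlap (0.78 ± 0.19, adjusted p = 0.00357). Near-identical copies elsewhere in the genome cover all of the coding sequences of Rps23 (3 copies) and Rps27a (4 copies), so that their counts are uncertain.

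Rps6, the substrate of the S6 kinases, was at 149, 135 and 105 CPM in PBS and at 155, 169, 189 and 199.8 CPM in TNF libraries. The groups lay apart (0.46 ± 0.13, adjusted p = 0.00839). Rps24, one of the proteins whose loss causes Diamond-Blackfan anaemia, was at 389.8, 338 and 218 CPM and at 341, 456, 514 and 640.1 CPM, with overlap between groups. It passed the threshold (0.63 ± 0.23, adjusted p = 0.0349) but not when any of PBS replicates 2 and 3 or TNF replicates 2, 3 and 4 was left out (adjusted p up to 0.0996, without PBS replicate 3). Rps4x, the X-linked S4 gene, was at 315, 288 and 282 CPM and at 293, 307, 293 and 333 CPM, with a difference of 0.05 ± 0.10 that did not pass (adjusted p = 0.677).

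In the large subunit, 20 of 48 tested genes were higher and 2 were lower (median 0.29), or 45.8% called compared with 59.6% of all tested genes. Rpl27 was at 13.5, 12.3 and 9.49 CPM in PBS and at 17.0, 25.1, 19.8 and 27.2 CPM in TNF libraries, and its groups did not overlap (0.92 ± 0.19, adjusted p = 0.00077). These are low levels for a ribosomal protein, and 2 near-identical copies elsewhere in the genome cover all of the coding sequence of Rpl27, so that its counts are uncertain. Rpl19, which reaches across to the small subunit, was at 128, 108 and 71.9 CPM and at 125, 157, 166 and 214 CPM. It rose by 0.69 ± 0.21 (adjusted p = 0.0158), although TNF replicate 1 lay below PBS replicate 1. Rpl5 and Rpl11 bind the 5S rRNA and, when free, the p53 regulator Mdm2. Rpl5 was at 168, 157 and 160.4 CPM and at 196, 183, 189 and 239 CPM, with no overlap (0.32 ± 0.11, adjusted p = 0.0264), and its direction turned to -0.02 when libraries were scaled to the summed members. The call of Rpl5 was lost without PBS replicate 2 (adjusted p = 0.089), PBS replicate 3 (0.0572) or TNF replicate 4 (0.0869). Rpl11 was at 89.4, 83.1 and 64.2 CPM and at 70.2, 88.5, 100.3 and 105 CPM, which overlap (0.20 ± 0.15, adjusted p = 0.252). Without TNF replicate 1 it passed (0.31, adjusted p = 0.0444).

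The 2 genes that fell are both of the large subunit. Rpl22, an RNA-binding protein on the outer face of the subunit, was at 62.1, 68.3 and 61.7 CPM in PBS and at 36.8, 36.5, 42.2 and 51.0 CPM in TNF libraries. Every TNF library lay below every PBS library (-0.62 ± 0.13, adjusted p = 0.000722), and Rpl22 was a DEG under each of the 14 alternatives that kept the threshold and did not scale to the members themselves. Rpl13a, which also acts outside the ribosome in the interferon-induced silencing of mRNAs, was at 13.2, 14.5 and 13.2 CPM and at 9.29, 10.9, 10.1 and 11.3 CPM. Its groups lay apart too (-0.39 ± 0.16, adjusted p = 0.045), but the call was lost with no filter on low counts and on leaving out any library other than TNF replicate 4, with the adjusted p at 0.059 (without TNF replicate 2) to 0.152 (without PBS replicate 2). Of all 39 calls, 12 were kept under these 14 alternatives: 11 rises (among them Rps13, Rps14, Rps20, Rps23, Rps27a, Rps27l, Rpl19, Rpl27, Rpl35 and Rplp1) and the fall of Rpl22. Near-identical copies elsewhere in the genome were found for Rps13, Rps20, Rps23, Rps27a, Rpl19, Rpl27 and Rpl35, whose counts are uncertain. None was found for Rps14, Rps27l, Rplp1 or Rpl22.

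**Figure D2:**
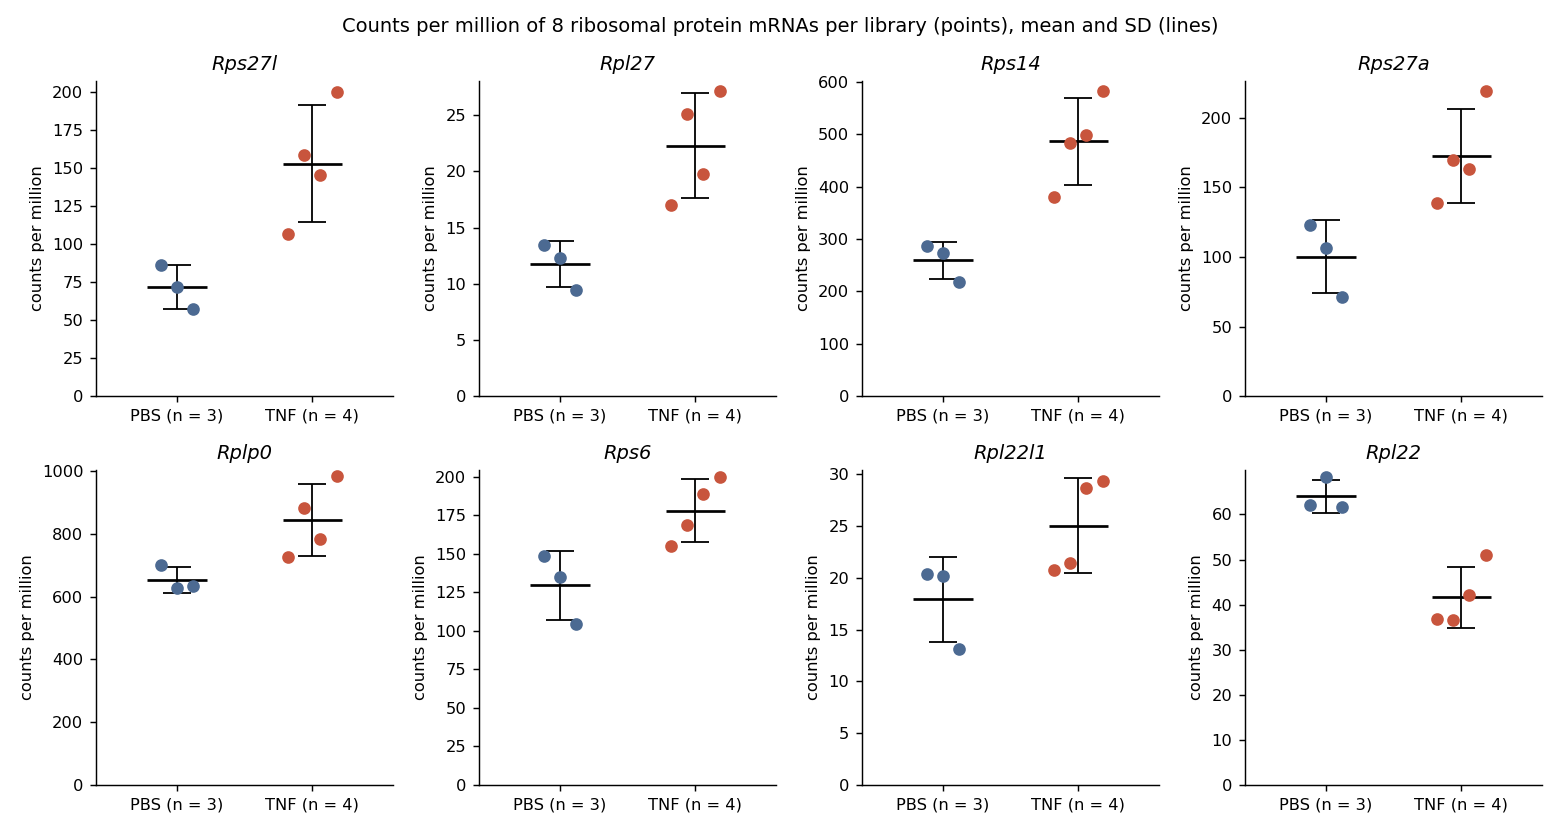
CPM (vertical axes, from 0) of 8 ribosomal protein mRNAs in the 3 PBS and 4 TNF libraries, with points for libraries and lines for the mean and SD. The TNF points of Rps27l, Rpl27, Rps14, Rps27a, Rplp0, Rps6 and Rpl22l1 lie above all PBS points, and those of Rpl22 lie below them.

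The largest rise and the largest fall among the members fell to a paralog and to a parent gene. Rps27l, a paralog of Rps27 known as a target of p53, was at 86.3, 71.7 and 57.2 CPM in the PBS libraries and at 107, 158, 146 and 199.8 CPM in the TNF libraries. The lowest TNF library was above all PBS libraries, and Rps27l rose by 1.09 ± 0.20 (SE, adjusted p = 0.000642), or 2.13-fold, the largest rise of the 80. Rps27 itself was at 111, 109 and 65.1 CPM and at 99.6, 134, 157 and 175 CPM, which overlap (0.57 ± 0.22, adjusted p = 0.0469). That call was lost without PBS replicate 3 (adjusted p = 0.115) or TNF replicate 2 (0.0633), 3 (0.0908) or 4 (0.0949). The 2 coding sequences are of equal length, and the ratio of Rps27l to Rps27 counts went from 0.766 to 1.08, a change of 0.49 on the log2 scale without overlap between groups (exact permutation p = 0.0571, 0.143 after adjustment over the 5 pairs tested). The log2 ratio was -0.36, -0.61 and -0.19 in PBS and 0.10, 0.25, -0.11 and 0.19 in TNF libraries. TNF replicate 3 thus lay only just above PBS replicate 3.

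In CPM, Rpl22l1 rose whereas Rpl22 fell. The paralog was at 20.4, 20.2 and 13.2 CPM in PBS and at 20.8, 21.4, 28.7 and 29.3 CPM in TNF libraries, of which the lower ones lay just above the PBS libraries. Its own rise (0.48 ± 0.18, adjusted p = 0.036) equalled the upper quartile of the members (0.48). The call was lost without PBS replicate 3 (adjusted p = 0.164), TNF replicate 3 (0.101) or TNF replicate 4 (0.0975), and with libraries scaled to the summed members. As a share of the summed ribosomal protein counts, Rpl22l1 overlapped between the groups (means of 0.155% and 0.173%), whereas Rpl22 did not. The log2 ratio of Rpl22l1 to Rpl22 counts was -1.60, -1.76 and -2.23 in PBS and -0.82, -0.77, -0.56 and -0.80 in TNF libraries. This gap between the groups was wider than the spread within either, and the mean ratio went from 0.275 to 0.599, or 2.18-fold (log2 change 1.12, exact permutation p = 0.0286, the smallest possible, and 0.143 after adjustment over the 5 pairs). The log2 change ran from 0.94 to 1.25 when each library was left out in turn.

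Other pairs showed no such gap. Rpl7l1, a relative of Rpl7 that works in ribosome assembly, was at 46.2, 56.1 and 54.1 CPM in PBS and at 67.2, 64.0, 70.2 and 77.9 CPM in TNF libraries (0.42 ± 0.11, adjusted p = 0.0047), and Rpl7 rose by 0.36 ± 0.15 (adjusted p = 0.0482). The call of Rpl7 was lost without PBS replicate 2 or 3 or TNF replicate 2, 3 or 4, with an adjusted p of at most 0.206 (without PBS replicate 3). The log2 ratio of Rpl7l1 to Rpl7 changed by 0.06 (exact permutation p = 0.943). Rps4l was at 4.83 to 8.86 CPM in PBS and 6.91 to 9.95 CPM in TNF libraries (adjusted p = 0.395), and its log2 ratio to Rps4x changed by 0.23 (exact permutation p = 0.4), or by 0.04 to 0.47 with 1 library left out. Rpl36al, which the symbol rule does not cover, was at 0.73 to 1.73 CPM and its log2 ratio to Rpl36a changed by -0.64 (exact permutation p = 0.143). The germline paralogs Rpl10l and Rpl39l had too few counts to be tested, and Rpl3l, known from muscle, had 0 counts in every library.

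**Figure D3:**
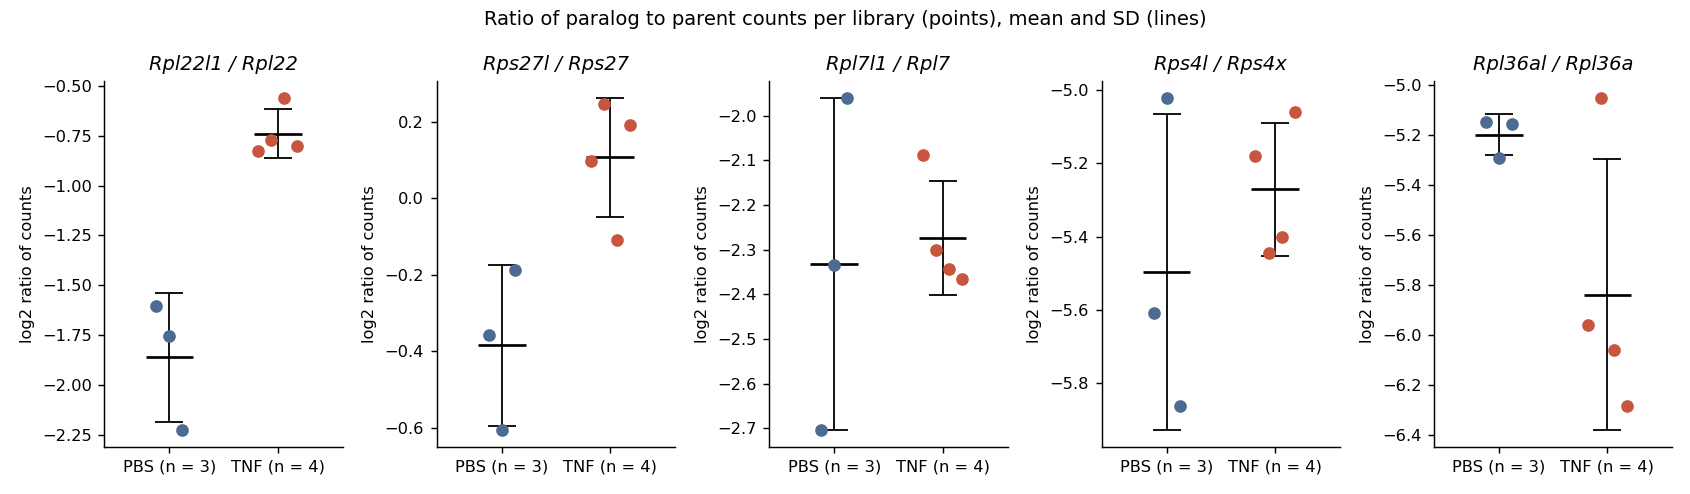
Log2 ratio of paralog to parent counts (vertical axes, each with its own range) for the 5 tested pairs in 3 PBS and 4 TNF libraries, with points for libraries and lines for the mean and SD. The groups lie apart for Rpl22l1 to Rpl22 and for Rps27l to Rps27 and overlap for the other 3 pairs.

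The balance of the subunits differed between the groups before adjustment but not after it. The log2 ratio of summed large to small subunit counts was 0.48, 0.51 and 0.56 in the PBS libraries and 0.45, 0.43, 0.39 and 0.36 in the TNF libraries. Every TNF library lay below every PBS library, and the difference of -0.11 (from a ratio of 1.43 to one of 1.33) had the smallest exact permutation p that the design allows, 0.0286 (0.0857 after adjustment over the 3 summed measures). It was -0.10 without the paralogs and -0.12 when the mean of log2 CPM replaced the sum, with the same p. Leaving out 1 library gave -0.13 to -0.09, in designs in which the p can no longer pass.

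**Figure D4:**
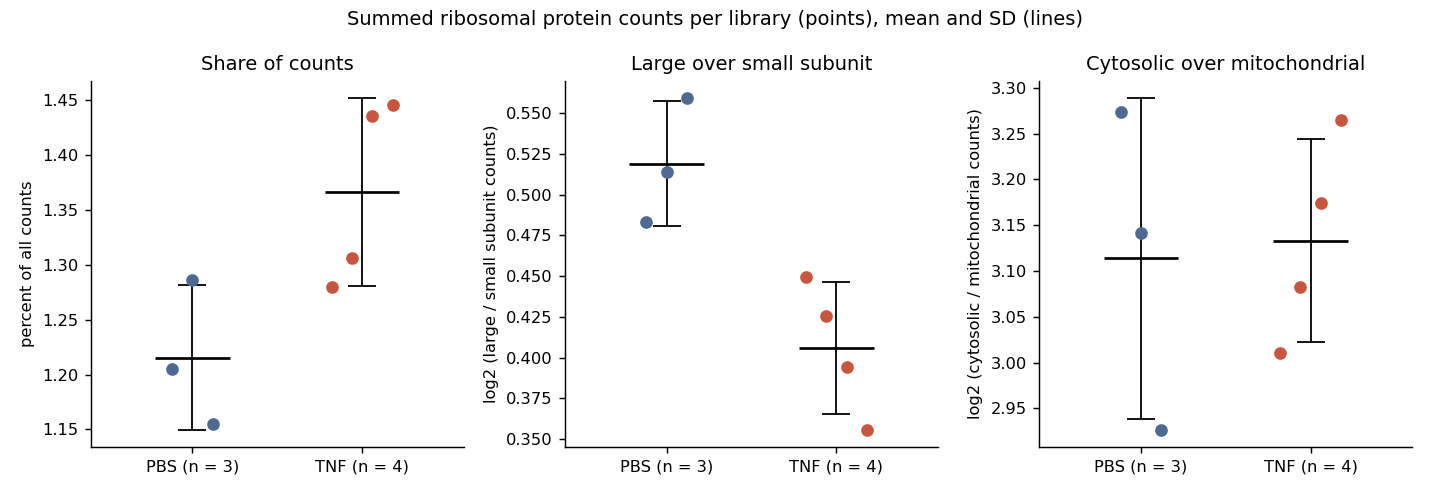
Summed ribosomal protein counts per library as a percentage of all counts, as the log2 ratio of large to small subunit and as the log2 ratio of cytosolic to mitochondrial ribosomal proteins (vertical axes, which do not start at 0), with points for 3 PBS and 4 TNF libraries and lines for the mean and SD. The groups lie apart in the middle panel and overlap in the other 2.

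Shares within the pool of ribosomal protein counts need no scaling either, and they are given as a description. Among the 83 members, the share was higher in every TNF than in every PBS library for 13 and lower for 16, of which 4 are described. In CPM, which is a different measure, the groups did not overlap for 60.7% of all tested genes (29.9% above and 30.9% below). Within a pool, a larger share of some members also lowers the shares of others. Rps14 went from 2.26% ± 0.05 (SD, n = 3) to 3.36% ± 0.09 (SD, n = 4) of the pool and Rps27l from 0.62% ± 0.04 to 1.04% ± 0.12. Rpl22 went from 0.57% ± 0.09 to 0.29% ± 0.02. Rpl4, the longest member, went from 5.84% ± 0.51 to 4.84% ± 0.38. Its CPM had a difference of 0.06 ± 0.13 that did not pass (adjusted p = 0.692).

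Per kilobase of coding sequence, the level in CPM was highest for Rpl41, which had the shortest coding sequence used (141 bases). Its mean was 1060 over all libraries, followed by Rplp1 (946), Rps24 (945), Rps14 (853) and Rplp0 (799.5). These levels depend on the coding length of the transcript that the annotation marks as canonical, and other transcripts were not used. The ranges of neighbours in this order over the 7 libraries overlap. Rpl41 was at 179.9, 158 and 89.0 CPM in PBS and at 107, 154, 169 and 189.8 CPM in TNF libraries, and with this spread its difference did not pass (0.12 ± 0.25, adjusted p = 0.696). At the other end, paralogs aside, Rpl27 was at 43.2, Rpl13a at 19.3, Rps10 at 3.95 and Rpl24 at 1.29 per kilobase. Rpl24 had 0 to 15 and Rps10 20 to 66 counts per library, and the SEs of their log2 fold changes were 0.77 and 0.45. No source used here tells how reads with several matches were counted, and its part in these levels was not tested. Near-identical copies elsewhere in GRCm39 (at least 75 bases of coding sequence at 99% identity) were found for 56 of the 83 members, and 6 share over 50% of their exon bases with another gene, Rpl24 and Rpl5 among them. Of the members with such a copy, 23 of 56 were higher and none lower (median 0.31), and of the tested members without one, 14 of 24 were higher and 2 lower (median 0.36). These are 41.1% and 66.7% called, compared with 59.6% of all tested genes, and the difference between the sets was not tested. The 317 named pseudogenes of ribosomal proteins held 0.0013% of the counts in PBS and 0.0014% in TNF libraries.

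Of 5 ribosomal proteins that the symbol rule leaves out, 2 were higher and none was lower (median 0.35), where 29.5% of all tested genes were higher. Rpsa, the small subunit protein also known as a laminin receptor, was at 326, 309.5 and 284 CPM and at 324, 388, 389.6 and 460.0 CPM (0.35 ± 0.13, adjusted p = 0.0275). Its call was lost without PBS replicate 2 or 3 or TNF replicate 2, 3 or 4, with an adjusted p of at most 0.0884 (without TNF replicate 4). Fau, made as a fusion of a ubiquitin-like protein to S30, was at 52.5, 51.2 and 28.9 CPM and at 62.8, 79.7, 77.3 and 89.2 CPM, without overlap (0.81 ± 0.19, adjusted p = 0.0036). Rack1, a scaffold on the small subunit, had a difference of 0.29 ± 0.13 that did not pass (adjusted p = 0.0622), but did without PBS replicate 1 (0.0393) or TNF replicate 1 (0.0261) and with the test of DESeq2 (0.0441).

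Of 20 other mRNAs of the TOP class and translation factors, 7 were higher and 4 lower (median 0.07), and their 55.0% called was near the 59.6% of all tested genes. Among them Nap1l1, a histone chaperone, rose by 0.75 ± 0.15 (adjusted p = 0.000747), the initiation factor subunit Eif3e by 0.66 ± 0.11 (adjusted p = 0.000215) and Tpt1 by 0.50 ± 0.15 (adjusted p = 0.0104). The helicase Eif4a2 went from 169 to 187 CPM in PBS to 68.7 to 85.2 CPM in TNF libraries (-1.19 ± 0.10, adjusted p = 3.14e-07). The elongation factors did not pass the threshold with TMM: Eef1a1 was at 1975 to 2573 CPM in PBS and 1983 to 2758 CPM in TNF libraries (0.06 ± 0.16, and -0.27 when scaled to the summed members), and Eef2 at 1984 to 2396 CPM and 1829 to 1956 CPM (-0.20 ± 0.14). Eef2 passed as lower with total counts only (-0.36, adjusted p = 0.00436) and when scaled to the summed members (-0.52, adjusted p = 0.00305). Of the 9 host genes of small nucleolar RNAs, many of them TOP mRNAs, Snhg3 (1.94 ± 0.25) and Snhg6 (1.25 ± 0.25) were among 3 that rose, and Gas5 was the 1 that fell (-0.41 ± 0.13, adjusted p = 0.0143, and 0.12 without PBS replicate 2).

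Most factors that build ribosomes were higher after TNF. Of 51 assembly factors 37 were higher (72.5%, compared with 29.5% of all tested genes) and 3 lower, with a median of 0.58. Eif6, which keeps a new large subunit from joining a small one too early, was at 65.8, 68.7 and 59.3 CPM in PBS and at 366, 453, 398 and 422 CPM in TNF libraries. It rose by 2.67 ± 0.12 (adjusted p = 7.97e-10), and Nip7, which works on the large subunit, by 1.86 ± 0.14 (adjusted p = 7.57e-08). The nucleolar proteins nucleolin (Ncl, 0.69 ± 0.11), fibrillarin (Fbl, 0.60 ± 0.14) and nucleophosmin (Npm1, 0.58 ± 0.13) rose as well, all with an adjusted p of at most 0.00214. For rRNA synthesis, 5 of 14 genes were higher and 3 lower (median 0.13), or 57.1% called compared with 59.6% of all tested genes: the initiation factor Rrn3 rose by 0.92 ± 0.10 and the shared subunit Polr1d by 1.10 ± 0.14, whereas Polr1a, the largest subunit of RNA polymerase I, fell by 0.54 on the log2 scale (SE 0.12, adjusted p = 0.00152).

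Of 25 regulators of growth and translation 4 were higher and 10 lower (median -0.12), and the 56.0% called was again near that of all tested genes. Mtor fell (-0.52 ± 0.11, adjusted p = 0.0011). Eif4ebp1, which holds back initiation when mTOR is off, rose (1.54 ± 0.24, adjusted p = 0.00033), from a mean of 35.4 CPM to 103 CPM. Its relative Eif4ebp2, the more abundant one, fell from 314 CPM to 149 CPM (-1.08 ± 0.10, adjusted p = 8.56e-07). Ddit4, an inhibitor of mTOR, rose too (1.12 ± 0.11, adjusted p = 1.74e-06). Sesn3, another inhibitor, fell (-1.85 ± 0.13, adjusted p = 4.40e-08). Larp1 was at 322 to 414 CPM in PBS and 428 to 482 CPM in TNF libraries (0.34 ± 0.12, adjusted p = 0.0208), and its call was lost without PBS replicate 2 (adjusted p = 0.0823) or 3 (0.0785) or TNF replicate 3 (0.0559). Myc, a driver of ribosomal protein genes, was at 26.7 to 52.1 CPM and 36.6 to 43.7 CPM (0.05 ± 0.18, adjusted p = 0.809), and Mycn, low in PBS at 5.04 to 7.33 CPM, was at 0 to 0.77 CPM after TNF (-4.21 ± 0.57, adjusted p = 2.75e-05).

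Mitochondria hold a ribosome of their own, which served for comparison. Of its 77 tested proteins 29 were higher and 11 lower (51.9% called, compared with 59.6% of all tested genes), with a median of 0.27, and its DEGs ran from Mrpl33 (1.71 ± 0.13) and Mrps6 (1.43 ± 0.22) to Mrpl24 (-0.82 ± 0.13) and Mrpl49 (-0.88 ± 0.19). The log2 ratio of cytosolic to mitochondrial ribosomal protein counts was 3.27, 3.14 and 2.93 in PBS and 3.01, 3.08, 3.17 and 3.27 in TNF libraries. These overlap throughout, and the difference of 0.02 was not detectable (exact permutation p = 0.857, and the same after adjustment). The mRNAs that mitochondria encode themselves took 0.394% to 0.585% of counts in PBS and 0.204% to 0.317% in TNF libraries. All 37 tested subunits of the proteasome, the complex that degrades proteins tagged with ubiquitin, were DEGs, with 36 higher and 1 lower and a median of 0.98. Among them Psma7 rose by 1.71 ± 0.12 and the interferon-inducible Psmb8 by 2.25 ± 0.16.

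**Figure D5:**
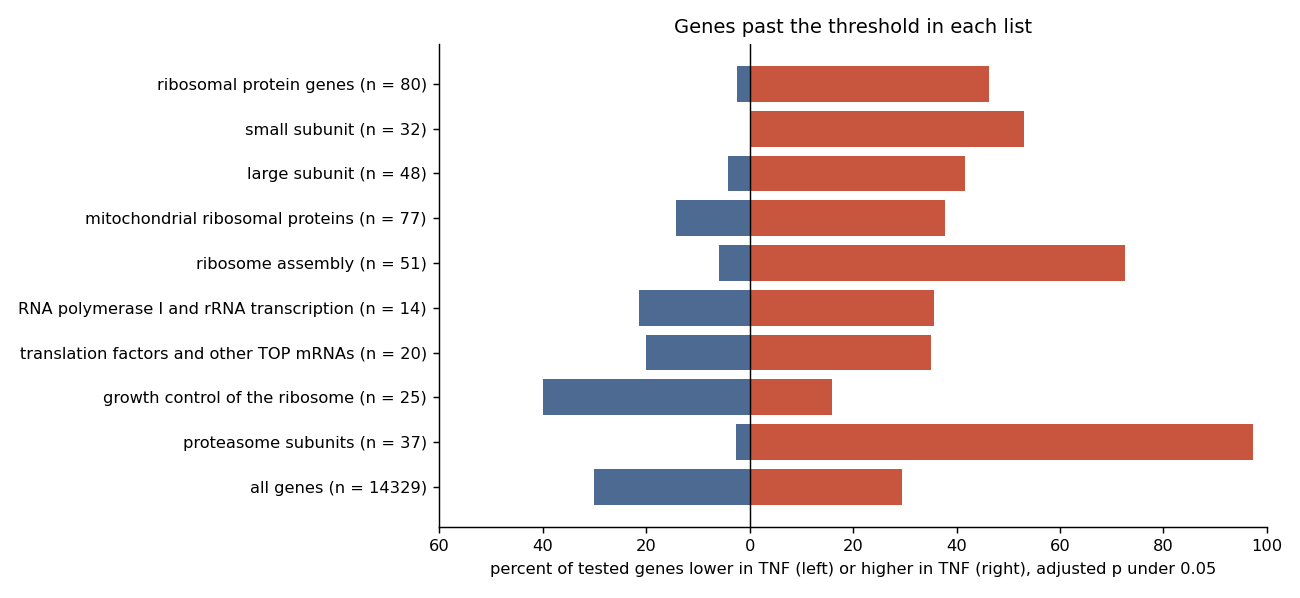
Percentage of tested genes that were DEGs, lower in TNF to the left of 0 and higher to the right, for ribosomal proteins, their subunits, 6 other lists and all tested genes, with the number tested beside each name. Ribosomal proteins have 46.2% higher and 2.5% lower, proteasome subunits have nearly all genes higher, and all genes split evenly.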

How the data were processed

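The authors deposited raw read counts per gene, whole numbers with 1 column per library, for 3 PBS and 4 TNF libraries of sorted PCs. The submitters' processing notes name FastQC, Trimmomatic 0.39, STAR 2.7.10a and DESeq2 and the builds mm10 and mm39. The counting program, annotation, use of strand and treatment of reads with several matches are given in no source used here, so counts of members with near-identical copies or overlapping genes are uncertain.

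Symbols and coordinates were taken by Ensembl identifier from GENCODE M39 (GRCm39), which held 54749 of 55414 identifiers (98.8%). Libraries were scaled by trimmed means (TMM) and compared in R 4.3.3 with the two-sided edgeR 4.0.16 quasi-likelihood test (filterByExpr, robust dispersion, no covariates), with Benjamini-Hochberg adjustment over the 14329 genes tested. The fit was tested on simulated data. CPM are counts scaled to 1000000 on TMM-scaled library sizes, and fold changes are given as log2 with their SE. Summed shares and log2 ratios, with 0.5 counts added for the paralog pairs, were compared by an exact two-sided permutation test over all 35 orderings of the group labels. Paralogs were tested where both genes had a mean of at least 10 counts. Coding sequences and lengths are those of the transcript marked as canonical for each gene in GENCODE M39, and other transcripts of a gene were not used. Copies were searched with blastn 2.17.0.

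Members, gene lists and tests were chosen with earlier results of these data known. Named members are the 6 largest rises and 6 largest falls of DEGs averaging 10 CPM or more, the 5 highest per coding kilobase, paralogs with their parents, and Rps6, Rpl5, Rpl11, Rplp0, Rplp1, Rplp2 and Rps4x. From the other lists, the 2 largest rises and falls among DEGs and 17 further genes could be named. Rpl4, Rps10, Rpl24, Rps28, Rpl23a, Eif4ebp2 and the neutrophil genes were singled out after their values were seen. Alternatives covered the scaling, the filter, DESeq2 1.42.0, the threshold, the replicate number as a block and each library left out.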

Additional observations from a re-analysis of the deposited data

Results flagged for a closer look

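Among 75 values looked at in the 4 TNF libraries, Snhg6, a host gene of small nucleolar RNAs that was a DEG, had 1 library apart from the others: it was at 5.26 CPM in TNF replicate 1 and at 7.39 to 7.71 CPM in the other TNF libraries. The gap was 0.871 of the range of the group, above Dixon's limit for 4 values, which chance passes in about 1 of 20 groups. All 4 values lay above those of the PBS libraries. TNF replicate 1 was also the library with the lowest ribosomal protein mRNAs of its group, with a median deviation of -0.29 on the log2 scale.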

How the results depend on the processing

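Of the 39 ribosomal protein calls (37 higher and 2 lower), the number was 39 with the test of DESeq2, 35 with its size factors, 39 with scaling without alpha-defensins and Lyz1, 39 with a filter of 1 CPM in 3 libraries and 41 (40 and 1) with no filter. Of all tested genes, 59.6% were called in the main fit and, in the same order, 60.3%, 59.5%, 59.6%, 62.8% and 37.0% in these. The number of members called was 24 (21 and 3) with total counts only, 12 (6 and 6) with libraries scaled to the summed members and 19 (18 and 1) at an adjusted p under 0.01. For all tested genes the shares called were 54.1%, 51.7% and 48.4%. Leaving out each library gave 22 to 45 calls, with 20 to 44 higher and 1 to 2 lower. The share of all tested genes called ran from 51.8% to 61.3% in those fits. Relative to all genes, the median of the members was 0.342 to 0.349 under each scaling. Scaled to the summed members, the median of all genes was -0.33, Rpl5 turned to -0.0246 (adjusted p = 0.904) and Eef1a1 to -0.27 (adjusted p = 0.0397), as that scaling takes out what the members share. With 1 library left out, the large to small subunit difference was -0.131 to -0.0927 and the Rpl22l1 to Rpl22 change 0.94 to 1.25 on the log2 scale. Those p-values cannot pass in 6 libraries, where the smallest possible are 0.0667 without a PBS library and 0.1 without a TNF library. The share of counts, the cytosolic to mitochondrial ratio, the other pairs and the count over related lists kept their side of the threshold or stayed within 1.5 times of the main count under the alternatives run, but with 1 library left out the difference in the cytosolic to mitochondrial ratio, which did not pass, ran from -0.0746 to 0.0996 and that of Rpl7l1 to Rpl7 from -0.126 to 0.245. Of the named genes, 11 had the other sign under at least 1 alternative without passing there or in the fit reported. The replicate numbers did not pair the libraries: deviations of same-numbered libraries correlated at -0.30, -0.03 and -0.17, and a fit with the replicate number as a block called 13 members (12 and 1). That fit called 49.8% of all tested genes. Low counts limit Rpl24 and Rps10, and what sets these counts was not tested. The group sizes, 3 against 4 mice, limit all p-values.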
